A study of Mus musculus with 16 samples.

Results

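The 144 genes described here were those named Rnf, Trim, Fbxo, Fbxw, Fbxl, Klhl or Usp with a number, other than Usp2, that held an N6-methyladenosine (m6A) peak in mouse liver. They were chosen by name from the 7693 genes with a peak, and comprised 42 Rnf, 30 Usp, 27 Trim, 17 Fbxo, 15 Klhl, 8 Fbxl and 5 Fbxw genes. A name is not an activity. Usp6nl, for example, passed the rule by name but encodes a GTPase-activating protein. Male C57BL/6J mice, 10 to 11 weeks old, had been fed for 2 weeks. One group ate a normal diet (ND), whose composition is not in the labels, and the other a high-fructose diet (HFrD) with 10% of energy from fat, 70% from carbohydrate and 20% from protein. MeRIP-seq, in which RNA fragments are enriched with an antibody against m6A, gave 1 peak list for each of 4 ND mice (numbered 1, 3, 6 and 7) and 4 HFrD mice (1, 2, 5 and 7). The labels give no genotype beyond the strain, and the tissue was whole liver.

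Ubiquitin is attached to proteins by an activating enzyme, a conjugating enzyme and a ligase, and the ligase chooses the target. Most Rnf and Trim proteins carry a RING domain that brings the conjugating enzyme to the target, whereas F-box proteins (Fbxo, Fbxw, Fbxl) and many Klhl proteins are the target-binding subunits of cullin-based ligases. Usp proteins are proteases that remove ubiquitin. In the liver these enzymes limit sterol synthesis, growth factor and Wnt signals, the response to viral RNA and the half-life of clock proteins.

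A peak is a stretch of exon in which the immunoprecipitated signal exceeded background, and the motif most often linked to m6A is GGACT in DNA letters. The sites below come from regions on which the results turn and which hold the motif. Each is the GGACT nearest the middle of its region, with 12 bases on either side. Sequences are in the direction of the transcript and from the GRCm38 (mm10) genome. A region is a set of overlapping peaks of 1 gene over all mice, numbered along the chromosome. Capitals mark the central match, and the Rnf25 site holds another GGACT in lower case. The first 4 belong to regions that leaned to ND livers in presence, the next to a region that leaned to HFrD livers, and the last 3 to regions shared by all mice whose fold enrichment ranked among the most different.
Klhl21 region 1 (chr4:152009356-152009384, plus strand): cctggacatgcaGGACTtcgccgaggcct
Klhl21 region 2 (chr4:152012674-152012702, plus strand): gtgactttgaatGGACTcatgtacttcgt
Rnf25 region 1 (chr1:74593950-74593978, minus strand): cctcagctcgcaGGACTcgggactgtgct
Rnf19b region 1 (chr4:129058678-129058706, plus strand): tcgctcgtgccgGGACTgcctccgccact
Fbxl17 region 2 (chr17:63499849-63499877, minus strand): gccccggagccgGGACTgcttcttccgcg
Usp10 region 2 (chr8:119941591-119941619, plus strand): tcagaatcctgtGGACTtcatcagtggcc
Rnf214 region 2 (chr9:45900018-45900046, minus strand): gtctgatttgaaGGACTtgaccaacccag
Rnf26 region 1 (chr9:44111658-44111686, minus strand): gtctacctctgaGGACTccctccctgcct
These matches are a description of the sequence. Several regions discussed below hold no GGACT, among them Rnf5 region 1, Klhl6 region 1, Rnf10 region 2 and Usp10 region 1. Rnf168 region 5, Usp47 region 2 and Usp48 region 4 hold none either. The peaks do not resolve single bases. Klhl21 region 1 holds 3 matches and Klhl21 region 2 holds 1.

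The lists held 8055 to 11517 peaks, and with no read totals used here, depth is unknown and list length alone measures yield. ND lists were longer on average, at 10168 ± 1076 peaks (SD, n = 4) against 9128 ± 949 (SD, n = 4) for HFrD mice. No peak of the 144 genes had a false discovery rate of 5% or less in the deposited lists. The lowest rate of such a peak lay between 46.2% and 69.0% in each mouse, and 7 peaks of all 77183 passed 5%. Peaks had been kept by p-value, with scores (-10 times log10 p) from 50 upwards. A missing peak may come with low transcript abundance or depth as well as low methylation, and in whole liver fewer cells of a type and less RNA per cell cannot be told apart. Of 10 markers of hepatocytes, 6 held a peak in some mouse, so peak lists check the tissue only loosely.

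Most of the ubiquitin genes held a peak in most mice of both diets. A peak was present in all 8 mice for 61 of the 144 genes (42.4%, against 39.6% of all genes) and in a single mouse for 22 (15.3%, against 14.2%). Genes with a peak numbered 99, 106, 109 and 115 in ND mice 1, 3, 6 and 7, and 96, 106, 95 and 90 in HFrD mice 1, 2, 5 and 7. The ranges overlapped, since HFrD mouse 2 held as many genes as ND mouse 3. ND mice averaged 107.2 ± 6.65 genes and HFrD mice 96.8 ± 6.70 (SD, n = 4 per diet), a difference of -10.5 genes. Per gene, the share of mice with a peak was 74.5% in ND and 67.2% in HFrD livers, and over all genes it was 70.2% and 64.5%.

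The difference changed with list length. When each list was cut to its 8055 highest-scoring peaks, the difference turned from -10.5 to 0.5 genes. With full lists, 47 of the genes held a peak in more ND than HFrD mice and 24 in more HFrD than ND mice. With equal lists the counts were 25 and 32, and over all genes they went from 2446 and 1364 to 1770 and 1652.

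By family, the mean share of genes with a peak was highest for Usp and Rnf genes and lowest for Fbxl genes on both diets. Rnf genes with a peak numbered 31, 33, 35 and 36 in ND mice and 29, 33, 29 and 25 in HFrD mice. Their mean share of mice was 80.4% in ND and 69.0% in HFrD livers, and with equal lists 71.4% and 64.9%. Usp genes numbered 24, 24, 24 and 26 in ND mice and 24, 23, 23 and 20 in HFrD mice, so the diets met at 24. For Trim genes the values were 20, 19, 17 and 20 in ND mice and 18, 19, 19 and 16 in HFrD mice, which overlapped widely. The sign of the Trim and Usp differences turned with equal lists, from -3.70 to 4.63 and from -6.67 to 2.50 percentage points.

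**Figure D1:**
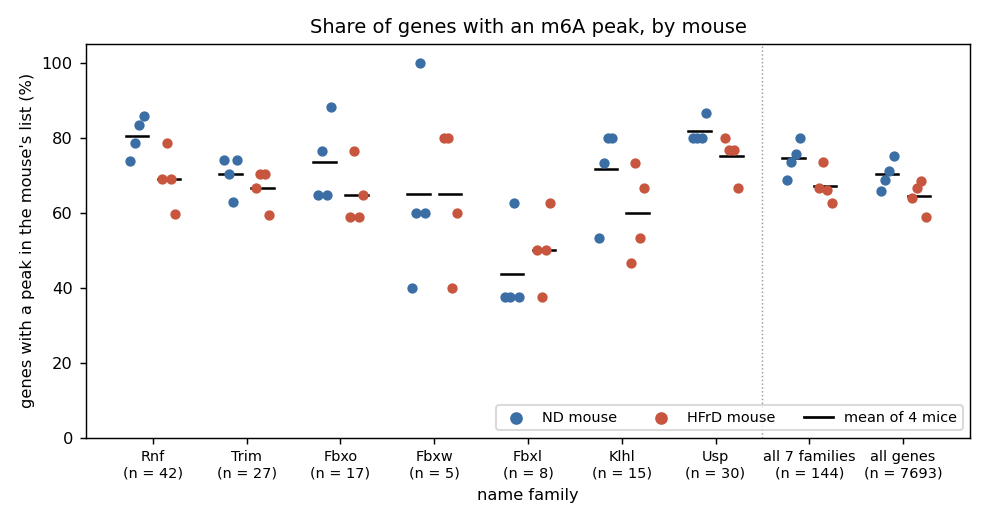
Share of the genes of each name family with a peak in a mouse's list (percent, y axis), with 1 point per mouse, blue for ND and red for HFrD, and a bar at the mean of 4 mice. All 144 genes and all 7693 genes stand at the right. ND means lie above HFrD means for Rnf, Trim, Fbxo, Klhl and Usp genes, with full lists, and points of the diets overlap in every family.

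The next question was which single genes separated the diets. Klhl21 was the single gene of the 144 with a peak in every ND mouse and in no HFrD mouse, a pattern found for 0.364% of all genes, and no gene of the 144 had the reverse pattern, which 0.156% of all genes had. Klhl21 encodes a substrate adaptor of cullin 3 that, in human cells, targets Aurora B during cell division. It held 2 peaks in each ND mouse. Region 1, at chr4:152008843-152009963, was placed by peak midpoint in the coding sequence of exon 1 of 4. It begins before the annotated gene start at 152008891, so it also covers the 5' end of the gene. The fold enrichment of region 1 was 5.33, 4.39, 7.47 and 4.51 in ND mice 1, 3, 6 and 7. Region 2, at chr4:152012300-152012705, was placed by midpoint in the coding sequence of exon 2, with fold enrichments of 4.05, 4.38, 6.37 and 6.56. Both regions carry the GGACT sites printed above, and neither had a peak in any HFrD mouse. These were the 2 separated regions among 310 regions of the 144 genes, where the pattern was found for 0.364% of all regions, and 0 were separated toward HFrD, a pattern of 0.091% of all regions.

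Of the 8 Klhl21 peaks, 5 scored under 100. Scores of region 1 were 76.2, 61.9, 241.1 and 62.6 and those of region 2 were 71.4, 94.0, 161.0 and 276.4 in the same mice, so that ND mice 6 and 7 alone held a score over 100. With a minimum score of 100, Klhl21 was present in 2 ND mice and 0 HFrD mice, and Rnf8 was the single separated gene. Over all 6116 genes at that score, 29 were separated toward ND and 9 toward HFrD. With equal lists Klhl21 stayed separated through region 2 alone, where 19 of all 6867 genes were separated toward ND and 21 toward HFrD. Fisher's exact test, two-sided, gave p = 0.0286 for Klhl21, the smallest that 4 against 4 mice allow, and a Benjamini-Hochberg adjusted p of 1. Of the 45 genes found in 2 to 6 lists, and so testable, 0 passed an adjusted p of 0.05 and 1 had an unadjusted p under 0.05, as had 40 of the 2839 testable genes overall.

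**Figure D2:**
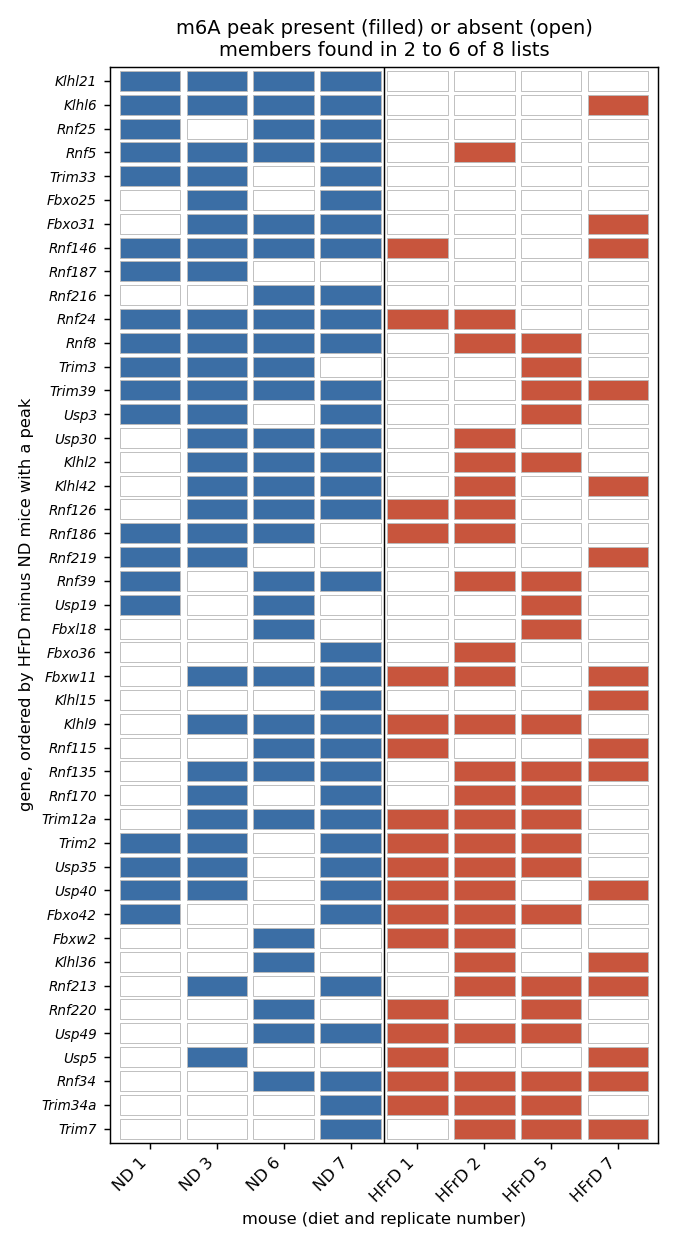
Peaks of the 45 genes found in 2 to 6 of 8 lists, by mouse. Filled cells mark a peak (blue for ND, red for HFrD), open cells none, and genes run from those with more ND mice at the top to those with more HFrD mice at the bottom. Klhl21, in the first row, is the single gene filled in 4 ND mice and in no HFrD mouse.

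A difference of at least 3 mice was found for 5 of the 144 genes toward ND, where 2.87% of all genes had it, and for 0 toward HFrD, where 0.975% had it. With equal lists the counts were 3 toward ND and 0 toward HFrD, and over all genes they went from 221 and 75 to 142 and 121. Beside Klhl21 the 5 genes were Klhl6, Rnf5, Rnf25 and Trim33. Klhl6, an adaptor known from B cells, held a peak in 4 ND mice and in HFrD mouse 7. Its fold enrichment at the start codon in exon 1 was 5.47 to 8.71 in ND mice and 6.92 in that HFrD mouse. The difference in the share of mice with a Klhl6 peak went from -0.75 to -0.25 with equal lists and with a minimum score of 100.

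Rnf5 encodes a ligase of the endoplasmic reticulum membrane that acts in protein quality control. Its start codon region was present in ND mice 1, 3, 6 and 7 with fold enrichments of 8.98, 6.25, 14.1 and 12.1, and in HFrD mouse 2 with 6.59. Scores were 142.6, 108.9, 432.6 and 430.6 in the ND mice and 128.1 in that HFrD mouse. Rnf5 thus held the highest scores of the 5 genes, and its difference of 3 mice was the same with a minimum score of 100 and with equal lists. Rnf25, a ligase that in human cells acts at stalled ribosomes, held a peak in the last of 10 exons in ND mice 1, 6 and 7, with scores of 63.2, 53.0 and 55.1. Trim33, a regulator of SMAD signalling, was present in ND mice 1, 3 and 7 through 4 regions of 1 mouse each, with scores from 53.7 to 74.0. Neither Rnf25 nor Trim33 held a peak in any mouse with a minimum score of 100.

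Single regions were then compared. Of the 310 regions, 13 were present in at least 3 more ND than HFrD mice (2.87% of all regions) and 6 in at least 3 more HFrD than ND mice (0.905% of all regions). The 6 HFrD regions were Fbxl17 region 2, Fbxo9 region 1, Trim14 region 1, Trim30a region 2, Usp47 region 2 and Usp48 region 4, and were named after their values were seen. Usp47, which in human cells deubiquitinates the base excision repair polymerase, held a peak in all 8 mice. Its region 2, in exon 12 of 28, was present in ND mouse 7 with a fold enrichment of 4.76 and in HFrD mice 1, 2, 5 and 7 with 7.87, 5.87, 7.14 and 3.98. With equal lists the ND peak dropped out, and this region alone became separated toward HFrD. Usp48 region 4, in exon 15 of 28, was present in ND mouse 6 with 7.56 and in the HFrD mice with 8.16, 5.76, 11.6 and 5.69. Fbxl17 region 2, whose site is printed above, was present in HFrD mice 1, 2 and 5 with 8.55, 4.64 and 6.25 and in no ND mouse. No region passed an adjusted p of 0.05 by Fisher's exact test, over all genes or among these, and 2 of the 141 testable regions, both of Klhl21, had an unadjusted p under 0.05, as had 80 of the 7446 testable regions overall.

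Members of the role groups were then compared. Role groups were lists of genes by known function, and their counts stand beside 47 genes with more ND and 24 with more HFrD mice among the 144. Of 16 interferon-linked genes, 6 held a peak in more HFrD than ND mice, 1 in more ND mice and 9 in equal numbers. Genes of this group numbered 9, 12, 12 and 14 in ND mice and 13, 14, 14 and 12 in HFrD mice. The ranges overlapped, and ND mouse 1 was the lowest. The share of mice with a peak differed by 9.38 percentage points, less than the pooled SD of 10.0 between mice, by 3.65 without ND mouse 1 and by 12.5 with equal lists.

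Among these genes, Trim25 and Trim56, which act in the sensing of viral RNA and of DNA, held peaks in all 8 mice. Trim34a was present in 1 ND and 3 HFrD mice, the largest difference in the group. The other 5 genes toward HFrD (Trim30a, Trim30c, Trim34b, Rnf125 and Rnf213) and Trim5 toward ND differed by 1 mouse each. Trim30, Trim34 and Trim12 genes are closely related neighbours between which reads may be split, so values of single copies are uncertain. Of 6 markers of Kupffer cells and macrophages, 4 held a peak: Marco in 0 ND and 4 HFrD mice, Vsig4 in 3 and 4, Clec4f in 4 and 3 and Csf1r in 1 and 0. Their part in the interferon-linked values was not tested.

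Of 5 genes of sterol, lipid and endoplasmic reticulum control with a peak, 3 were present in more ND mice and 0 in more HFrD mice. Rnf5 differed by 3 mice, and Rnf185 and Usp19 by 1 mouse each. Genes of the group numbered 3, 3, 3 and 4 in ND mice and 1, 3, 3 and 1 in HFrD mice. The shares of 65% and 40% were the same with equal lists, but HFrD mice 2 and 5 matched ND mice. Rnf145, a ligase that responds to sterols, was present in all 8 mice. Of 13 genes of histone ubiquitination and DNA damage, 6 were present in more ND and 1 in more HFrD mice. Rnf8, which starts the ubiquitin signal at DNA breaks, was present in 4 ND and 2 HFrD mice, and Rnf168, which extends that signal, in all 8. The group's numbers were 11, 11, 11 and 13 in ND mice and 10, 10, 12 and 7 in HFrD mice, with the lowest value in HFrD mouse 7, whose list was the shortest. With equal lists the counts were 4 toward ND and 1 toward HFrD. The group's difference in share went from -13.5 to -9.62 percentage points.

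Of 7 genes of Wnt and growth control, Fbxw7, Rnf43, Usp4, Usp15 and Usp34 held peaks in all 8 mice. Rnf43 removes Wnt receptors from the cell surface, and Fbxw7 targets MYC and SREBP. The other 2, Trim33 and Rnf146, were present in more ND mice, and the group's difference in share went from -17.9 to -3.57 percentage points with equal lists. Of 6 cullin 3 adaptors, Klhl3, which targets WNK kinases, was present in all 8 mice, 3 genes in more ND mice and 1 in more HFrD mice. With equal lists the counts were 1 and 2, and the difference in share went from -20.8 to -4.17 percentage points. Of genes listed for the clock, Usp9x was present in all 8 mice and Fbxw11 in 3 mice of each diet. Usp30, which opposes the removal of damaged mitochondria, was present in 3 ND mice and 1 HFrD mouse.

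Several genes carried many peaks. Usp8, a deubiquitinase of endosomal receptors, held 5, 7, 7 and 7 peaks in ND mice and 7, 7, 6 and 7 in HFrD mice, the most of the 144 genes. Usp47 followed with 6, 5, 4 and 7 peaks in ND and 5, 4, 5 and 4 in HFrD mice. Rnf168 held 3 to 5 peaks in every mouse, and Fbxw7 held 3 in each. Fbxo21 was the most variable of the leading genes, with 2, 5, 5 and 7 peaks in ND and 1, 4, 2 and 3 in HFrD mice. Ranked within each list by a gene's highest-scoring peak alone, Trim44, Usp8, Usp47, Fbxw7, Usp34 and Trim26 came highest. The median over mice of this score percentile ran from 96.2 to 98.1. Other peaks of these genes did not enter it.

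The level of enrichment was compared in the 74 regions of the 144 genes that had a peak in all 8 mice. Fold enrichment was compared on the log2 scale, centred on each list's median over shared regions, with limma over all 4346 shared regions. No region of the 144 genes passed an adjusted p of 0.05 (smallest 0.333, limma), and none of all 4346 did. At an unadjusted p under 0.05 there were 6 of 74 regions (8.11%), against 9.6% of all shared regions. Of these, 3 were higher in HFrD livers (4.58% of all shared regions) and 3 lower (5.02%). The median difference was 0.03 log2 over the 74 regions and 0.00 over all.

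**Figure D3:**
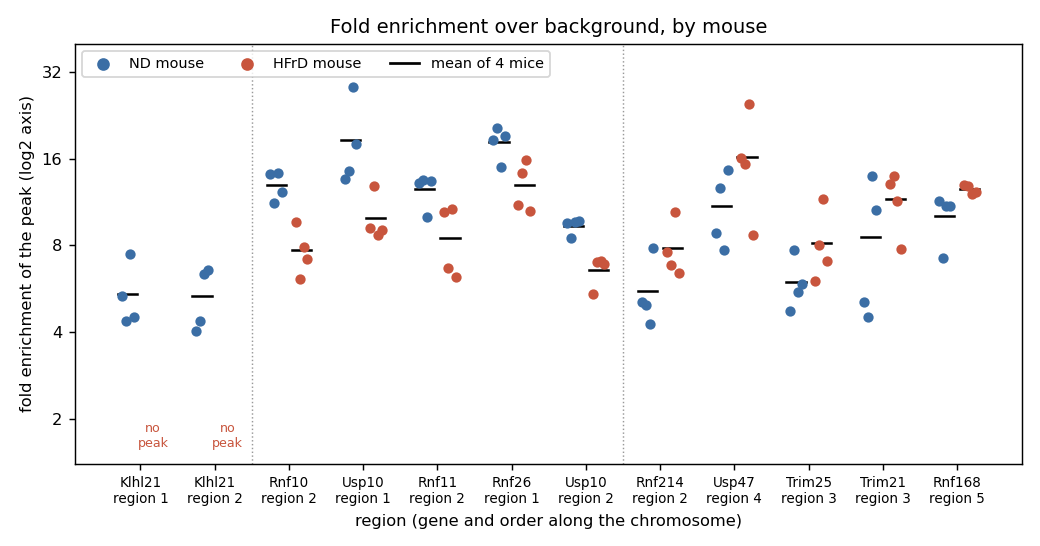
Fold enrichment of the peak (log2 axis) by mouse, blue for ND and red for HFrD, with a bar at the mean of 4 mice. The regions are the separated Klhl21 regions, the 5 shared regions with the smallest p among those lower in HFrD, and the 5 among those higher. Rnf10 region 2 and both Usp10 regions (lower in HFrD) and Rnf168 region 5 (higher) do not overlap between the diets, and Klhl21 has no HFrD value.

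Of the 74 regions, 3 had every HFrD value below every ND value (4.53% of all shared regions) and 1 had every HFrD value above (1.29% of all shared regions). These counts used fold enrichments as deposited, whereas the limma differences used values centred on each list's median. Rnf10, a ligase of ribosomal proteins in human cells, had fold enrichments of 14.1, 11.3, 14.3 and 12.2 in ND mice and 9.64, 6.13, 7.88 and 7.20 in HFrD mice at its start codon region. The difference was -0.67 ± 0.21 log2 (SE; limma, adjusted p = 0.333). Usp10, a deubiquitinase of p53 in human cells, gave 2 of the 3 regions. Its region 1 at the start codon had 13.6, 14.5, 28.4 and 17.96 in ND mice and 9.21, 12.8, 8.71 and 9.02 in HFrD mice, a difference of -0.77 ± 0.25 log2 (SE; limma, adjusted p = 0.370). Its coding region 2 had 9.56, 8.52, 9.65 and 9.69 in ND and 5.41, 7.02, 7.05 and 6.88 in HFrD mice. Here the difference was -0.42 ± 0.20 log2 (SE; limma, adjusted p = 0.527). All 4 HFrD mice lay below all ND mice in both Usp10 regions, but neither passed the test.

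Rnf168 region 5 was the region with every HFrD value above, with 11.4, 7.24, 11.0 and 10.9 in ND mice and 12.9, 12.9, 12.1 and 12.2 in HFrD mice (0.42 ± 0.21 log2, SE; limma, adjusted p = 0.542). The smallest p toward HFrD belonged to Rnf214 region 2, with 5.11, 4.98, 4.26 and 7.84 in ND and 7.61, 6.85, 10.5 and 6.42 in HFrD mice (0.60 ± 0.21 log2, SE; limma, adjusted p = 0.414), in which ND mouse 7 overlapped the HFrD mice. Usp47 region 4, Trim25 region 3 and Trim21 region 3 followed with differences of 0.61, 0.52 and 0.65 log2, and Rnf11 region 2 and Rnf26 region 1 on the other side with -0.50 and -0.43. In each of these 5 regions the diets overlapped.

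Of the transcript segments, the coding sequence held the largest share of the peaks of the ubiquitin genes and of all genes. The share in the coding sequence (CDS) averaged 50.5% over the 8 mice, in start codon segments (200 nt on either side) 25.6%, in stop codon segments 10.3%, in the 3'UTR 11.5% and in the 5'UTR 2.18%. For all genes the shares were 49.0%, 25.0%, 13.1%, 9.87% and 3.10%. Stop codon shares of the ubiquitin genes were 9.88% to 10.7%, below the 11.7% to 14.4% of all genes in every mouse. By diet, CDS shares were 49.6% ± 1.49 for ND and 51.3% ± 2.91 for HFrD mice (SD, n = 4 per diet), a difference smaller than the spread in HFrD mice. Of placed peaks of these genes, 65.1% were exactly 1 whole exon (68.9% for all genes), so position is resolved only to the exon.

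**Figure D4:**
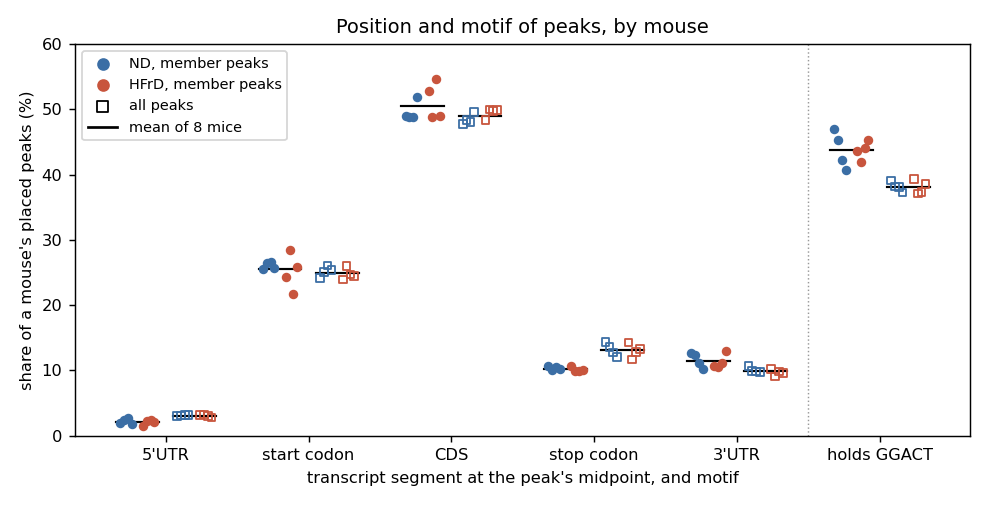
Share of each mouse's placed peaks (percent, y axis) whose midpoint lay in a transcript segment, and share that held GGACT. Filled circles are peaks of the 144 genes (member peaks), open squares all peaks, blue for ND and red for HFrD, with bars at the mean of 8 mice. Peaks of the 144 genes held GGACT in 40.7% to 47.0% of cases and all peaks in 37.1% to 39.3%.

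In every mouse, peaks of the ubiquitin genes were wider at the median and more often held the motif than all peaks. Median widths averaged 441.8 ± 56.0 bp over ND mice and 450.8 ± 48.4 bp over HFrD mice (SD, n = 4 per diet), against 300.2 and 296 bp for all genes. GGACT, searched on the strand of the gene, was held by 43.8% of the peaks against 38.1% of all peaks, at 43.8% ± 2.87 for ND mice and 43.7% ± 1.44 for HFrD mice (SD, n = 4 per diet). Wider regions held the motif more often. Of the regions of 500 bases or more, 95 of 122 (77.9%) held it against 72.2% of all regions of that width, but of those of 150 to under 500 bases 14.95% held it against 23.9% of all, and of those under 150 bases 14.3% against 8.66%.

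Other genes of the ubiquitin pathway were set beside these. From a list of 231, 154 held a peak, 47 of them (30.5%) in more ND and 19 (12.3%) in more HFrD mice. Over all genes the shares were 31.8% and 17.7%. With equal lists the counts of the 154 were 34 and 26. A difference of at least 3 mice was found for 9 toward ND and 0 toward HFrD with full lists, where 2.87% and 0.975% of all genes had it. With equal lists it was found for 3 and 3. None of the 154 passed Fisher's exact test at an adjusted p of 0.05, and 0 had an unadjusted p under 0.05. Of 24 proteasome subunits, 10 were present in more ND and 2 in more HFrD mice, and 8 and 2 with equal lists. Psmb2 and Psmd6 were present in 3 ND mice and 0 HFrD mice, and Psmc5 and Psmd8 in 4 and 1. Of 36 other RING and U-box ligases, 15 were present in more ND mice, among them Mdm4, the p53 regulator, and Mul1, a mitochondrial ligase, in 4 ND mice and 1 HFrD mouse each, and 1 in more HFrD mice. With equal lists the counts were 13 and 4.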

How the data were processed

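RNA of each liver was enriched for m6A by immunoprecipitation and sequenced beside its input (16 libraries, 150 bp paired-end reads). Input libraries were not analysed here. Per the submitters' processing notes, cutadapt 1.9.3, HISAT2 2.0.4 and mm10 were used. The authors ran MACS on each mouse. Its version is not given in the sources used here, nor its settings. The score that was deposited is -10 times log10 of the p-value, the deposited fold enrichment is a ratio to background, the false discovery rate is a deposited percent, and other deposited columns hold positions and widths in bp. No authors' comparison was used.

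The genes, lists and rules for named genes were chosen with earlier results of these data known. Named genes were the separated genes and regions, those at least 3 mice apart, the 5 regions of smallest limma p per direction, leading genes of each family and the role groups. Other genes were chosen after their values were seen, as were Usp6nl, Mdm4, Mul1 and the proteasome subunits named.

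Presence of a gene meant at least 1 of its peaks in the mouse's list. Peaks of 1 gene overlapping by 1 base in any lists were merged into 310 regions of the 144 genes (17574 over all genes). Between any pair of lists, at most 2 peaks coincided in position, score and enrichment. Presence was tested by Fisher's exact test over genes in 2 to 6 lists, and log2 fold enrichment by limma 3.58.1 with a trend, both two-sided with Benjamini-Hochberg adjustment over all features. Labels do not say whether mice were housed or processed together, and the main tests took mice as independent. The limma p-values rest on the spread between these mice, moderated over all shared regions. Fisher p-values rest on the counts of mice alone. Peaks were placed by midpoint on GRCm38 transcripts (98.4% of peaks of these genes). Starts were counted from 0 (82.7% matched an exon start), so 1 was added. Sequences came from the RefSeq GRCm38 assembly. Alternatives were equal list lengths, a score of at least 100, leaving out each mouse, an enrichment of at least 3, mice 1 and 7 alone, a reciprocal overlap of 50%, a looser separation and other scalings for limma. Equal lists for the gene lists and settings for motif, CDS and interferon-linked shares were added after seeing the data. Python 3.11.15, numpy 2.4.6, pandas 2.3.3, scipy 1.17.1, pysam 0.24.0, matplotlib 3.10.9 and R 4.3.3 were used. Values of 1 gene of the set are not reported here.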

Additional observations from a re-analysis of the deposited data

Results flagged for a closer look

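Single mice stood apart from the other 3 of their diet in the values below, by a gap test (Dixon, 95%) that chance passes in about 1 in 20 groups, and counts of few genes with ties pass it easily. HFrD mouse 1 had the widest peaks of the 144 genes in its diet (median 523 bp). ND mouse 7, with the longest list, was highest in its diet for the share of peaks in the CDS (51.9%), for Usp genes with a peak (26), for genes of sterol, lipid and endoplasmic reticulum control (4) and for genes of histone ubiquitination and DNA damage (13). ND mouse 1 was lowest for clock genes (2) and for cullin 3 adaptors (3), and had the highest fold enrichment at Trim8 region 3 (9.64). ND mouse 6 was highest for Fbxl genes (5), lowest for Wnt and growth control genes (6) and lowest in fold enrichment at Rnf11 region 2 (10.1). ND mouse 3 was lowest in fold enrichment at Rnf168 region 5 (7.24) and at Usp10 region 2 (8.52). At Usp10, HFrD mouse 2 was highest in region 1 (12.8) and HFrD mouse 1 lowest in region 2 (5.41).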

How the results depend on the processing

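The difference in gene number was -10.5 with full and 0.5 with equal lists. With equal lists the differences in share of mice with a peak also turned sign, to 0.347 percentage points for the 144 genes, 4.63 for Trim, 2.50 for Usp, 1.85 for conjugating enzymes, 14.7 for HECT ligases and 1.14 for other deubiquitinases. Separated regions then numbered 1 toward ND (Klhl21 region 2) and 1 toward HFrD (Usp47 region 2), against 37 and 31 of 14348 regions over all genes. With a score of at least 100, 1 region was separated toward ND (Rnf8 region 1), against 65 of 12142 over all genes, and 48.2% of peaks held GGACT. Asking for at least 3 mice against at most 1 gave 9 genes toward ND and 2 toward HFrD. This looser rule was not counted over all genes, so no trait of the 144 genes can be read from it. With a mouse left out, separated genes toward ND ranged from 1 to 2, separated regions toward ND from 2 to 6 (6 without ND mouse 1, 5 without HFrD mouse 5) and toward HFrD from 0 to 3 (3 without HFrD mouse 7). The difference in gene number ranged from -13.6 to -7.92. Numbers 1 and 7 are shared by the diets, but the labels do not say that a number marks a shared litter or day. A replicate block on these mice gave 7 genes toward ND, 1 toward HFrD, 16 regions toward ND and 3 toward HFrD, from fewer mice and so a looser rule. Separated genes and regions on this block, or with a mouse left out, were not counted over all genes. These numbers therefore show nothing particular to the 144 genes. No limma setting called a region of the 144 genes. Without read counts, a difference in methylation cannot be told apart from one in abundance or depth.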
